A study of Mus musculus with 162 samples.

Results

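The skin barrier is made of lipids as well as protein, and the 10 genes described here encode enzymes and a transporter that make, move or oxidise those lipids: the fatty acid elongase Elovl4, the cytochrome P450 Cyp4f39, the ceramide synthase Cers3, the transacylase Pnpla1, the lipid transporter Abca12 and the lipoxygenases Alox12b, Aloxe3, Alox12e, Alox8 and Alox15. They were chosen by name for their roles, with earlier results of these data known. All 10 were found among the 46078 genes counted in each library. Their mRNA was compared between MC903-treated and ethanol-treated cheek skin in 61 of the 70 skin libraries of the series, which holds 162 libraries in all. Alox12e was lower with MC903 at every day and in every genotype and injection group examined, Alox12b, Cers3 and Cyp4f39 were higher in wild-type skin on days 5 and 8, and Alox15 was higher in wild-type skin on day 8 and lower in TSLPR KO skin.

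As background, keratinocytes of the upper epidermis build acylceramides, ceramides with an unusually long fatty acid that carries linoleic acid at its far end. Elovl4 lengthens the fatty acid, Cyp4f39 (the mouse counterpart of human CYP4F22) hydroxylates its end, Cers3 joins it to the sphingoid base, Pnpla1 adds the linoleate and Abca12 loads the product into lamellar granules. Alox12b and then Aloxe3 oxidise the linoleate, a step in fixing the lipid to the cornified cell envelope, and inherited loss of several of these enzymes in humans causes ichthyosis. Alox12e is an epidermal 12-lipoxygenase of the mouse, Alox8 is the mouse 8-lipoxygenase known to be inducible in skin by phorbol ester, and Alox15 is the 12/15-lipoxygenase of macrophages and eosinophils.

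All mice were adult male C57BL/6, treated once a day on the cheek with 20 µL of ethanol or of 0.2 mM MC903 (calcipotriol, a vitamin D analogue used as a model of atopic dermatitis) in ethanol. Uninjected wild-type mice gave 4 MC903 and 4 ethanol libraries on day 1 (6 hours after the first treatment), 3 and 2 on day 2, 3 and 3 on day 5, and 5 and 6 on day 8. On day 8 there were also wild-type mice injected with PBS (2 MC903 and 3 ethanol libraries), wild-type mice injected daily with 250 µg of the anti-Gr1 antibody, which binds Ly6G and Ly6C and depletes neutrophils (4 and 4), BLT1 KO mice labelled as lacking the leukotriene B4 receptor BLT1 (3 and 3), and TSLPR KO mice, which lack Crlf2 and so the receptor for the epithelial cytokine TSLP (3 and 2). TSLPR KO mice were also sampled on day 12 (4 and 3). The labels number the replicates but do not tie them to mice, so p-values measure the spread between these libraries.

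Libraries used held 17431296 to 67342879 counts on genes (median 28927563). Crlf2 was at 0.0604 to 1.52 cpm (counts scaled by TMM to libraries of 1000000) in the 12 TSLPR KO libraries and at 2.14 to 14.6 in the 43 wild-type libraries, with no overlap. Ltb4r1, which encodes BLT1, was at 2.32 to 15.4 cpm in the 6 BLT1 KO libraries and 3.51 to 79.9 in wild type, so its count does not check that label. The study reported neutrophil depletion by flow cytometry, which marker RNA here does not check. With anti-Gr1, 5 of 5 neutrophil markers tested were called higher with MC903 (adjusted p under 0.05), beside 15.1% of all genes. Without injection on day 8, 4 of 6 were, beside 12.2%. The difference of the effects was called for 0 of 6 (median 0.08), beside 4.56% of all genes. It was called for 3 of 5 T cell markers, all lower. The 9 skin libraries labelled wild-type day 12 were left out: 6 of them held 0.51 to 0.776 cpm of Abca12 against at least 46.7 in every skin library used, and 7 of the 9 wild-type day 12 libraries labelled trigeminal ganglion held 63.3 to 287 cpm against at most 8.42 in every other ganglion library. In the day 2 comparison, replicate 3 of MC903 carried 1550 cpm of 8 summed sensory neuron markers against 15.9 to 18.3 in the other 4 libraries, and it was the lowest of the 3 MC903 libraries for 9 of the 10 genes. Titles of the uninjected wild-type skin libraries of day 8 come in 2 forms, with a bracketed library code (treated as cohort A, 3 MC903 and 3 ethanol) and without one (cohort B, 2 and 3). In cohort A the titles repeat replicate numbers, with 2 MC903 libraries numbered 1 and 2 ethanol libraries numbered 3.

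The 5 lipoxygenase genes all lie on chromosome 11 of GRCm38 (mm10), in 2 groups. Aloxe3 (chr11:69125896-69149115, plus strand), Alox12b (chr11:69156989-69169792, plus strand) and Alox8 (chr11:69183932-69197843, minus strand) sit within 71.9 kb with no other annotated gene between them, and Alox12e (chr11:70315610-70322628) and Alox15 (chr11:70344152-70352031), both on the minus strand, sit within 36.4 kb, 1118 kb further along. Abca12 is at chr1:71242276-71414910, Elovl4 at chr9:83778692-83806277, Cers3 at chr7:66743504-66823691, Pnpla1 at chr17:28858411-28890309 and Cyp4f39 at chr17:32452723-32493320. Pnpla1 shares 644 exon bases with the antisense gene Pnpla1os, and whether the authors' counting used strand is not stated, so reads of the pair cannot be told apart.

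Alox12e and Alox12b, members of one gene family on one chromosome, had opposite log2 fold changes from day 5 on, and Cers3 and Cyp4f39 were called higher on the same days as Alox12b, so the promoters of these 4 genes are shown. MC903 acts through the vitamin D receptor, which binds as a pair with RXR to 2 hexamers of the AGGTCA kind spaced by 3 bases. Each sequence is the RefSeq window on GRCm38.p6 that runs from 250 bases before to 50 bases after the gene start, 5′ to 3′ on the gene's strand, and capitals mark 4 hexamers wherever they occur on either strand (AGGTCA and GGGTCA, together with GGTTCA and AGTTCA).
Alox12e, chr11:70322481-70322780, minus strand: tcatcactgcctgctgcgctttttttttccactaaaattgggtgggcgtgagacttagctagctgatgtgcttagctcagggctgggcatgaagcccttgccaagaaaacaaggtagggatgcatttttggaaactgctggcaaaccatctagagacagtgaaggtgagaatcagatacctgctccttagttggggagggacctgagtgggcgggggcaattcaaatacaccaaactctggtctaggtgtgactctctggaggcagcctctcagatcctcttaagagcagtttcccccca
Alox12b, chr11:69156822-69157121, plus strand: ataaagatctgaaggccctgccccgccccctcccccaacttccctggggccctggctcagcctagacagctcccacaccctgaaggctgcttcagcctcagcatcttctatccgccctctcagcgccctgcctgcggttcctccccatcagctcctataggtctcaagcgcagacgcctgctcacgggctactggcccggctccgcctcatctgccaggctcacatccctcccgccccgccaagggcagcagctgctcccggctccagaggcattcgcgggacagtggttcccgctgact
Cers3, chr7:66743254-66743553, plus strand: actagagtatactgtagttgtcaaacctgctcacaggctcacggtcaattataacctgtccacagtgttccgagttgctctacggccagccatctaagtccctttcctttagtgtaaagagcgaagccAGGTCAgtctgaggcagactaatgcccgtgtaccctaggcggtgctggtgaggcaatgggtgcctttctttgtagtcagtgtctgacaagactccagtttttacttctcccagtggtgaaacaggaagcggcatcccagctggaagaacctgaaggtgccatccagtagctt
Cyp4f39, chr17:32452473-32452772, plus strand: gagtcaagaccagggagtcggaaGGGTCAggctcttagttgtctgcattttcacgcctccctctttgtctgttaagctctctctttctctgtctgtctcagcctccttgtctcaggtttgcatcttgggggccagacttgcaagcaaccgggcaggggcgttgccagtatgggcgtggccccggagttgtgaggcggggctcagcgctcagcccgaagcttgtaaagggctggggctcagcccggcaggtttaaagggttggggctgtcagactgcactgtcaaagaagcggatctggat
RefSeq promoter windows were matched for 8 of the 10 genes, all but Aloxe3 and Alox15. A hexamer was found in 3 of the 8: AGGTCA in Cers3, GGGTCA in Cyp4f39 and GGTTCA in Abca12, each upstream of the start. Of all 32851 RefSeq promoter windows of this length, 43.7% held at least 1 of the 4 hexamers. The window of Alox12b is 66% G and C and that of Alox12e 50.7%, and neither held a hexamer. No window of the 8 held any 2 of the hexamers in the same orientation with 3 bases between (NNN), which 0.0396% of all windows held. A match is only a match of letters and shows no binding.

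In ethanol-treated skin the genes covered a wide range of levels per kilobase of exon. Over the 30 ethanol libraries Elovl4 was highest, with a median of 411 cpm per kb (127.9 to 997), then Alox12e with 42 (24.3 to 164). Alox12b, Cers3, Abca12 and Cyp4f39 were nearly level, with medians of 12.9, 12.4, 12.2 and 12.1, with overlapping ranges. Pnpla1 (6.68), Alox8 (6.08) and Aloxe3 (5.14) followed with overlapping ranges, and Alox15 was lowest at 0.812 (0.264 to 2.1). The ranges of Elovl4 and Alox12e overlapped, as did those of Alox12e and Alox12b. In bulk skin, fewer cells of a type and less RNA per cell cannot be told apart, so every level below is a level per unit of skin RNA.

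**Figure D1:**
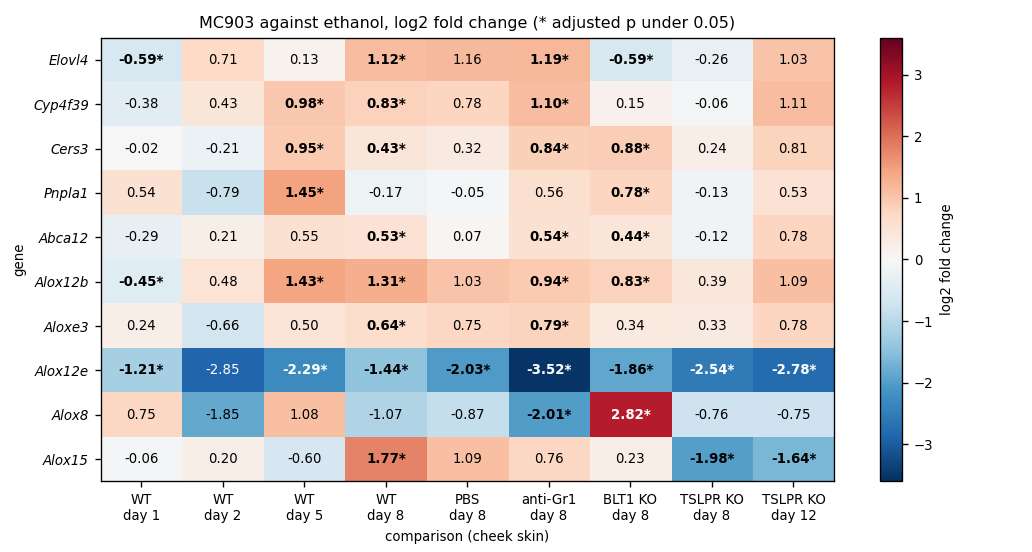
Log2 fold change of MC903 over ethanol for the 10 genes (rows, in the order of the pathway) in the 9 skin comparisons (columns), with an asterisk where the adjusted p was under 0.05. Alox12e is negative in all 9 columns, from -1.21 to -3.52, and the genes from Elovl4 to Aloxe3 are mostly positive from day 5 on.

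On day 1, 3 of the 10 genes were called, all lower with MC903 (Alox12b, Alox12e and Elovl4), where 13% of the 24749 genes tested were called, 5.51% higher and 7.47% lower. DESeq2 called these 3 and Pnpla1, where it called 23.4% of all genes. On day 2 none was called by edgeR's quasi-likelihood test, and 0% of the 24580 genes tested were, with 1191 of them under an unadjusted p of 0.05. Of the 10 genes, 2 (Alox12e and Alox8) had an unadjusted p under 0.05 on day 2, and DESeq2 called the same 2, where it called 1.33% of all genes. On day 5, 5 were called (4 higher, 1 lower) against 14.9% of all genes (8.15% and 6.78%), and on day 8, 8 were called (7 higher, 1 lower) against 23.4% (12.2% and 11.2%). The median log2 fold change of the 10 genes was -0.17 on day 1, 0.75 on day 5 and 0.58 on day 8, beside 0.00, -0.03 and -0.03 for all genes tested.

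Elovl4, which makes the very long fatty acid, was lower on day 1 and higher on day 8. On day 1 its level was 940.0, 961, 1025 and 1204 cpm in the MC903 libraries and 1427, 1539, 1543 and 1744 in the ethanol libraries. The groups did not overlap, and the fitted difference was a log2 fold change of -0.59 (SE 0.131, adjusted p = 0.0198). On day 8 the 5 MC903 libraries held 1696, 1719, 2258, 2512 and 4110 cpm, and the 6 ethanol libraries ran from 707 to 1531, all below them. The level was 2.18-fold higher (log2 fold change 1.12, SE 0.276, adjusted p = 0.0109), and the change from day 1 to day 8 in the MC903 effect was itself called (log2 difference 1.72, SE 0.353, adjusted p = 0.00226), where 19.8% of all genes were. Within cohort A the day 8 value was 1.37 (adjusted p = 0.0647) and within cohort B 0.78 (adjusted p = 0.0307). Between those days the values were 0.71 on day 2 and 0.13 on day 5, with overlapping libraries and neither called. The day 1 call was lost without MC903 replicate 2, 3 or 4 or ethanol replicate 2, and over the 8 fits that left out 1 library the log2 fold change ran from -0.66 to -0.52. On day 1, 6 of 12 sebaceous gland markers were called lower too (summed level 2265 to 3123 cpm with MC903, 3954 to 5716 with ethanol), beside 7.47% of all genes. On day 8, 3 of these markers were called higher and 1 lower (2243 to 5793 and 2537 to 4433), beside 12.2% and 11.2% of all genes. The part of these markers in the result was not tested.

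Cyp4f39, the hydroxylase, was higher on days 5 and 8. On day 5 it stood at 65.2, 65.3 and 68 cpm with MC903 and at 32.2, 33.1 and 36.1 with ethanol. These groups lay far apart relative to their spread, and the level was 1.97-fold higher (log2 fold change 0.98, SE 0.136, adjusted p = 0.00377). On day 8 the MC903 libraries held 50.1 to 90 cpm and the ethanol libraries 32.7 to 43.9, a 1.78-fold difference (log2 fold change 0.83, SE 0.153, adjusted p = 0.00184). On day 1 the MC903 libraries (27.4 to 35 cpm) lay below the ethanol libraries (36.6 to 54.4), but the gene was not called (log2 fold change -0.38, adjusted p = 0.0848). Within cohort A the day 8 value was 0.88 (adjusted p = 0.0342) and within cohort B 0.76 (adjusted p = 0.0183). The MC903 effect was above that of day 1 on day 5 (log2 difference 1.36, adjusted p = 0.000393), where 10.8% of all genes were called, and on day 8 (1.23, adjusted p = 0.00055). In one fit over the wild-type days neither difference was called (adjusted p = 0.122 and 0.0585), and in one fit over all skin libraries that of day 5 was not (0.0859).

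Cers3, the ceramide synthase for very long chains, had much the same course. Its day 5 values were 58.6, 59.3 and 61.9 cpm with MC903 and 29.2, 31.4 and 33.1 with ethanol, again without overlap. That is a 1.93-fold higher level (log2 fold change 0.95, SE 0.138, adjusted p = 0.0045). On day 8 the level was 59.5 ± 9.7 cpm (SD, n = 5) with MC903 and 44.5 ± 3.31 (n = 6) with ethanol (log2 fold change 0.43, SE 0.11, adjusted p = 0.0125), with 0.32 in cohort A alone and 0.55 in cohort B alone, neither called. On day 1 it was 42.1 ± 4.78 and 43 ± 6.47 cpm (n = 4 and 4), a log2 fold change of -0.02 with an SE of 0.114. The differences of day 5 and of day 8 from day 1 were 0.97 (adjusted p = 0.00224) and 0.47 (adjusted p = 0.039) on the log2 scale. The day 5 difference was not called in one fit over all skin libraries (adjusted p = 0.0766) or over the wild-type days (0.0723), and that of day 8 was lost under 5 of 7 other settings, with adjusted p from 0.0546 (no filter on low counts) to 0.333 (one fit over all skin).

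Pnpla1, which completes the acylceramide, was called higher in wild-type skin on day 5. On day 1 it was at 53 ± 8.28 cpm with MC903 and 36.7 ± 11.7 with ethanol (n = 4 and 4), a log2 fold change of 0.54 that edgeR did not call (adjusted p = 0.0884) and DESeq2 did (0.55, adjusted p = 0.0311), and without ethanol replicate 1 edgeR called it too (0.77, adjusted p = 0.00476). It stood at 43.2, 52.5 and 56.8 cpm with MC903 and at 16.5, 18 and 21.9 with ethanol on day 5, 2.72-fold higher (log2 fold change 1.45, SE 0.182, adjusted p = 0.00249). On day 8 the MC903 libraries (31 to 53 cpm) lay within the range of the ethanol libraries (32.5 to 74.5) but for the lowest ones, with a log2 fold change of -0.17 (SE 0.232). The MC903 effect was lower on day 8 than on day 5 (log2 difference -1.61, SE 0.355, adjusted p = 0.0348), where 1.62% of all genes were called, a call lost in one fit over the wild-type days (-1.58, adjusted p = 0.0738). In cohort A alone the day 8 value was -0.70 and in cohort B alone 0.43, neither called.

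Abca12, the lamellar granule transporter, was called higher on day 8. The MC903 libraries held 197, 237, 245, 333 and 341 cpm, and the 6 ethanol libraries 165 to 228 with a median of 182. The groups overlapped in the lowest MC903 library, and the fitted log2 fold change was 0.53 (SE 0.144, adjusted p = 0.0182). Without MC903 replicate 1 of cohort B it was 0.46 (adjusted p = 0.0518), and without replicate 2 of that cohort 0.48 (adjusted p = 0.0513). Within cohort A it was 0.26 (adjusted p = 0.361) and within cohort B 0.84 (adjusted p = 0.00839). On day 5 all 3 MC903 libraries (301 to 342 cpm) lay above the ethanol libraries (154 to 258), which was not called (log2 fold change 0.55, adjusted p = 0.145).

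Alox12b, the first lipoxygenase of the pathway, had the smallest adjusted p of the 10 genes on day 8. It was at 59.5, 61.1, 69.8, 77.1 and 82.5 cpm with MC903, and the ethanol libraries ran from 21.2 to 35.6 with a median of 26.4. No library overlapped, and the level was 2.48-fold higher (log2 fold change 1.31, SE 0.111, adjusted p = 3.7e-06). Cohort A alone gave 1.31 and cohort B alone 1.29. On day 5 the values were 76.1, 115.2 and 116.99 cpm against 31.3, 39.5 and 44.2, 2.69-fold higher (log2 fold change 1.43, SE 0.219, adjusted p = 0.00562). On day 1 it was lower, at 18.4, 19.3, 20.4 and 20.8 cpm against 23.1, 26, 26.8 and 32.4 (log2 fold change -0.45, SE 0.111, adjusted p = 0.0293), a call lost without MC903 replicate 1, 2 or 3 or ethanol replicate 2 or 3 (-0.51 to -0.33 over 8 such fits). The MC903 effect was above that of day 1 on day 5 (log2 difference 1.88, adjusted p = 0.000166) and on day 8 (1.77, adjusted p = 1.13e-06). Beside these values, all 5 stress keratinocyte markers, keratins and Sprr1b that appear in wounded or hyperproliferative epidermis, were called higher on days 5 and 8, from 617 to 1301 summed cpm with ethanol to 20340 to 29470 with MC903 on day 5, and their part in the result was not tested. Of all genes, 8.15% were called higher on day 5 and 12.2% on day 8.

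Aloxe3, which acts after Alox12b, was called higher on day 8 only among the wild-type days, at 51 ± 7.69 cpm (n = 5) with MC903 and 32.8 ± 6.59 (n = 6) with ethanol (log2 fold change 0.64, SE 0.155, adjusted p = 0.0103). The lowest MC903 library (39.1) lay under the highest ethanol library (43.2). Within cohort A the value was 0.80 (adjusted p = 0.00964) and within cohort B 0.40 (adjusted p = 0.35). On days 1, 2 and 5 it was 0.24, -0.66 and 0.50, none called.

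**Figure D2:**
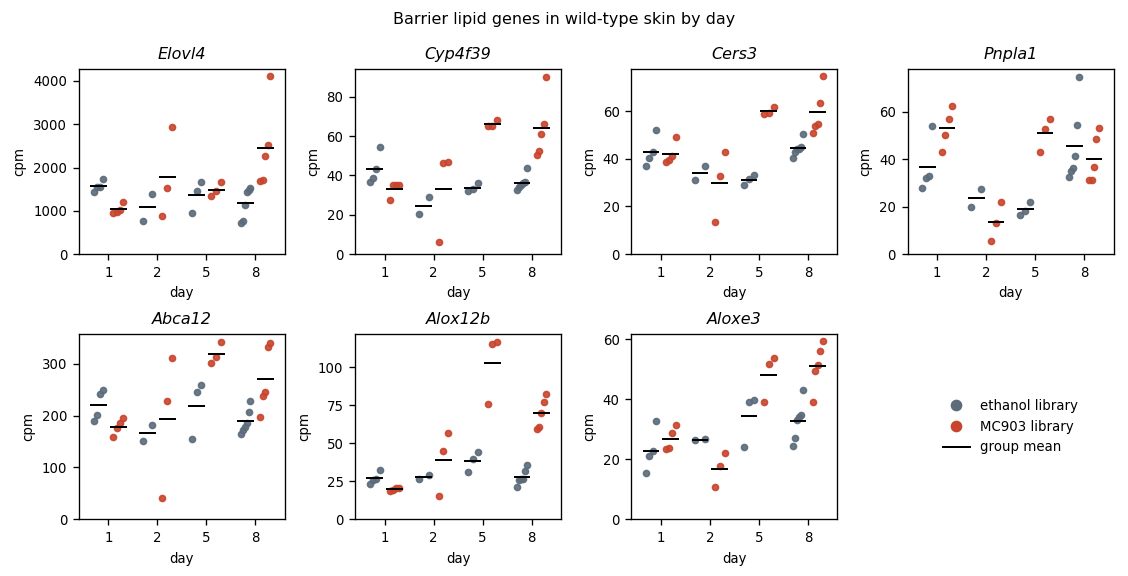
Levels in cpm (TMM-scaled) of the 7 barrier lipid genes in each wild-type library by day, with ethanol libraries in grey, MC903 libraries in red and group means as black lines. On day 5 the MC903 libraries of Cyp4f39, Cers3, Pnpla1 and Alox12b lie above all ethanol libraries of that day, and on day 2 the lowest MC903 point of each panel is the library that carried neuronal transcripts.

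Alox12e had the opposite pattern and was the most uniform of the 10. In each of the 9 comparisons every MC903 library lay below every ethanol library, and the gene was called lower in 8 of the 9. The share of all genes whose MC903 libraries all lay below was 10.7%, 11.5%, 17.8% and 5.3% on days 1, 2, 5 and 8, 17.5% with PBS, 16.1% with anti-Gr1, 21.5% in BLT1 KO, and 16.2% and 11.3% in TSLPR KO on days 8 and 12. On day 1 it stood at 47.9, 48.7, 49.6 and 55.6 cpm with MC903 and at 89.1, 112.2, 125.9 and 142 with ethanol, 2.31-fold lower after a single treatment (log2 fold change -1.21, SE 0.131, adjusted p = 0.000895). On day 5 it was 13.6, 15 and 40.9 cpm against 99.1, 112.7 and 129.996 (4.89-fold lower, log2 fold change -2.29, adjusted p = 0.0118). On day 8 it was 24.6, 30.7, 37.8, 56 and 93.8 cpm against 107 to 182 with a median of 112.4 (2.72-fold lower, log2 fold change -1.44, adjusted p = 0.00257). Within cohort A the day 8 value was -2.08 (adjusted p = 0.00181) and within cohort B -0.71 (adjusted p = 0.0981), and the difference between cohorts was not tested. On day 2 it was 4.1, 18.4 and 26 cpm against 99.7 and 134, the largest difference among the wild-type days, yet not called (log2 fold change -2.85, adjusted p = 0.659). Without MC903 replicate 3 of day 2, the library with neuronal transcripts, the value was -2.39 (adjusted p = 0.0579).

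The fall of Alox12e was also measured in the injected and knockout mice. With anti-Gr1 it was at 3.66, 5.49, 8.605 and 13.9 cpm with MC903 and at 68.6, 93.7, 95.4 and 105 with ethanol, 11.5-fold lower (log2 fold change -3.52, SE 0.379, adjusted p = 0.000212). With PBS it was 22.7 and 31.3 against 93.9, 107 and 141 cpm (log2 fold change -2.03, adjusted p = 0.0128), a call lost without either MC903 library or without ethanol replicate 1 (-2.30 to -1.82 over 5 such fits). The effect with anti-Gr1 was called larger than in uninjected mice (log2 difference -2.06, SE 0.47, adjusted p = 0.0182), where 4.56% of all genes were called, and remained so with cohort B alone as the uninjected arm (-2.81, adjusted p = 0.0226). Against the PBS-injected mice, the matched injection control, the difference was -1.44 (SE 0.512) and not called by edgeR (adjusted p = 0.332). In that comparison edgeR called 0.232% of all genes and DESeq2 2.64%, 0 of the 10 genes were called by either, and 1 of them, Alox12e, had an unadjusted p under 0.05.

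In BLT1 KO skin Alox12e was at 29.8, 31.7 and 45.4 cpm with MC903 and at 122.2, 128.8 and 136 with ethanol (log2 fold change -1.86, SE 0.178, adjusted p = 0.00013). In TSLPR KO skin it was at 25.2, 58.1 and 69.2 cpm against 253 and 337 on day 8 (log2 fold change -2.54, adjusted p = 0.0104) and at 36, 52.3, 61.8 and 71.5 against 261, 440.3 and 462 on day 12 (log2 fold change -2.78, adjusted p = 0.000666). The TSLPR KO ethanol libraries of both days lay above all ethanol libraries of the other genotypes (68.6 to 182 cpm), a difference that was not tested. The MC903 effect in TSLPR KO skin differed from that in wild-type skin by -1.06 on the log2 scale (SE 0.514, adjusted p = 0.406) and that in BLT1 KO skin by -0.37 (SE 0.405, adjusted p = 0.655), neither called. The anti-Gr1, BLT1 KO and TSLPR KO effects are all set against the same uninjected wild-type day 8 libraries.

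**Figure D3:**
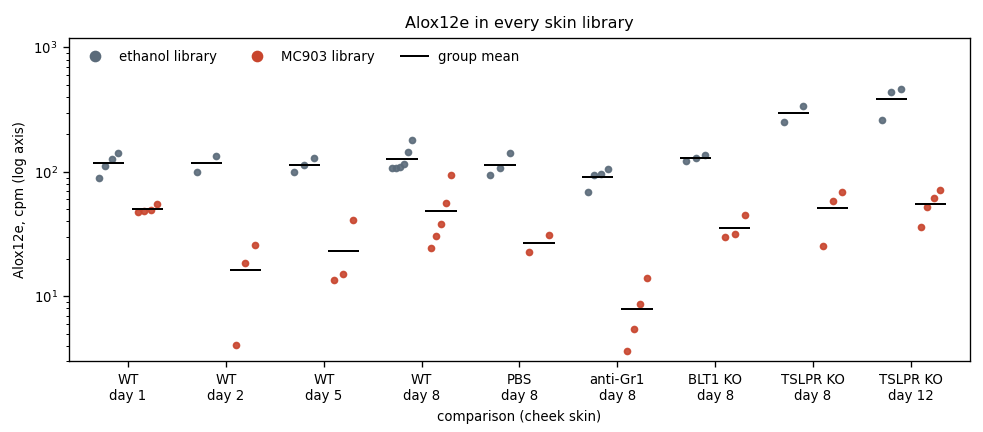
Alox12e in cpm (TMM-scaled, log axis) in each of the 61 skin libraries, grouped by comparison, with ethanol libraries in grey, MC903 libraries in red and group means as black lines. In all 9 comparisons the red points lie below the grey points, lowest with anti-Gr1 (3.66 to 13.9 cpm).

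With PBS, 1 of the 10 genes was called (Alox12e) against 3.99% of all genes (3.26% higher and 0.721% lower), a share that ran from 0.425% to 9.12% in the 5 fits without 1 library. With anti-Gr1 8 were (6 higher, 2 lower) against 32.6% (15.1% and 17.5%). The PBS comparison had 5 libraries and the anti-Gr1 comparison 8. Alox12b was 1.03 with PBS (adjusted p = 0.166) and 0.94 with anti-Gr1 (adjusted p = 0.00487). Cyp4f39 was 0.78 (adjusted p = 0.173) and 1.10 (adjusted p = 0.00784). Elovl4 was 1.16 and 1.19, Aloxe3 0.75 and 0.79, Cers3 0.32 and 0.84, and Abca12 0.07 and 0.54, with the second value of each pair called. Pnpla1 (-0.05 and 0.56) was called in neither by edgeR, while with anti-Gr1 DESeq2 called it (0.56, adjusted p = 0.0463), where it called 36.3% of all genes, as did edgeR with a replicate block (0.62, adjusted p = 0.0231). The difference between anti-Gr1 and PBS was called for none of these genes by edgeR or DESeq2, and the smallest p was that of Abca12 (log2 difference 0.52, SE 0.264, adjusted p = 0.531). With anti-Gr1, Alox12b, Cyp4f39 and Alox12e were called in all 8 fits that left out 1 library, Cers3 in 6 (0.69 to 1.10), Abca12 in 4 (0.43 to 0.67), Elovl4 in 3 (0.75 to 1.42) and Aloxe3 in 2 (0.61 to 0.98). Scaling to library totals in place of TMM moved the median log2 fold change of all genes with anti-Gr1 from -0.02 to 0.34, and the share of calls that were higher from 46.4% to 71.4%. All 10 genes were then called, with the same signs, against 30.6% of all genes.

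In BLT1 KO skin 7 of the 10 genes were called (5 higher, 2 lower) against 28.6% of all genes (14.1% and 14.6%). Cers3 was at 44, 65.9 and 89.9 cpm against 33.2, 37 and 37.6 (log2 fold change 0.88, adjusted p = 0.0202), a value of 0.61 (adjusted p = 0.0571) without MC903 replicate 3. Pnpla1 was 1.71-fold higher (log2 fold change 0.78, adjusted p = 0.00792), Alox12b 1.78-fold higher (0.83, adjusted p = 0.0396) and Abca12 1.36-fold higher (0.44, adjusted p = 0.0424). The calls of Alox12b (0.49 to 1.08) and Abca12 (0.41 to 0.53) held in 1 of 6 fits without 1 library, that without MC903 replicate 1. Elovl4 was lower in this genotype, at 1830, 1899 and 1940 cpm with MC903 and 2642, 2819 and 3011 with ethanol (log2 fold change -0.59, SE 0.137, adjusted p = 0.0123), and at -0.55 (adjusted p = 0.0577) without ethanol replicate 2. Its MC903 effect differed from that of wild-type skin by -1.66 (SE 0.395, adjusted p = 0.0175), where 6.95% of all genes were called, and by -1.30 with cohort B alone as the wild-type arm (adjusted p = 0.00412). The BLT1 KO ethanol libraries lay above all wild-type ethanol libraries of day 8 (707 to 1531 cpm). The BLT1 KO MC903 libraries lay within the wild-type MC903 range of that day (1696 to 4110 cpm). Neither difference in level between genotypes was tested. Between the BLT1 KO MC903 and ethanol libraries 10 of 12 sebaceous gland markers were called lower and 0 higher, their summed level being 2968 to 4004 cpm with MC903 and 8744 to 11920 with ethanol, and their part in the result was not tested.

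Alox8 was called in 2 of the 9 comparisons, in opposite directions. In BLT1 KO skin it was at 8.38, 9.4 and 26.9 cpm with MC903 and at 1.39, 1.97 and 2.91 with ethanol, 7.08-fold higher without overlap (log2 fold change 2.82, SE 0.497, adjusted p = 0.00314). With anti-Gr1 it was lower, at 2.76, 3.36, 4.41 and 5.13 cpm against 2.8, 12.3, 16.6 and 31.3 (log2 fold change -2.01, SE 0.578, adjusted p = 0.0263), with overlap in the lowest ethanol library. That call was lost without any 1 of the MC903 libraries or without ethanol replicate 3 (-2.36 to -1.40 over 8 such fits). In uninjected wild-type skin on day 8 it was at 3.55, 17.8, 21, 38.5 and 41 cpm against 28.6 to 76.2 and was not called (log2 fold change -1.07, adjusted p = 0.122). On wild-type days 1, 2 and 5 the value was 0.75, -1.85 and 1.08, none called in the main edgeR fit. Without ethanol replicate 1 the day 1 value was called by edgeR (1.22, adjusted p = 0.00223). The day 5 ethanol libraries held 2.65 to 11.7 cpm. With PBS and in TSLPR KO skin on days 8 and 12 the value was -0.87, -0.76 and -0.75, none called. The BLT1 KO effect differed from that of wild type on day 8 by 3.94 on the log2 scale (SE 0.821, adjusted p = 0.0083), and by 2.90 with cohort B alone as the wild-type arm (adjusted p = 0.0201). The BLT1 KO ethanol libraries lay below all uninjected wild-type ethanol libraries of day 8, and the BLT1 KO MC903 libraries within the wild-type MC903 range. These differences in level between genotypes were not tested. In wild-type cohort A alone the value of Alox8 was -2.01 and in cohort B alone -0.01, neither called. The ethanol libraries themselves ran from 1.39 to 76.2 cpm over all groups, the widest relative range of the 10 genes.

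Hair follicle markers also differed in these groups. The summed level of 8 of them (inner root sheath keratins, Tchh, Padi3 and Msx2) was 59.7 to 1120 cpm in BLT1 KO ethanol libraries and 2899 to 8068 in BLT1 KO MC903 libraries, where 2 of 8 were called higher and 0 lower, beside 14.1% and 14.6% of all genes. In wild-type skin on day 8 it was 12050 to 64050 cpm with ethanol and 3486 to 18830 with MC903, where 7 of 8 were called lower, beside 11.2% of all genes. With anti-Gr1 it was 323 to 9060 and 2131 to 2747, where 5 of 8 were called lower, beside 17.5% of all genes. In wild-type skin on day 5 the summed level was 925 to 19450 cpm with ethanol and 6638 to 22370 with MC903. There 0 of 8 were called, beside 14.9% of all genes. The part of these markers in the Alox8 results was not tested. Over the means of the 18 skin groups, the 3 genes with the pattern most like Alox8 were Gm45902, Capn12 and Otop2 (Pearson r 0.947, 0.947 and 0.944). These r values are descriptions over groups that share days and genotypes.

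**Figure D4:**
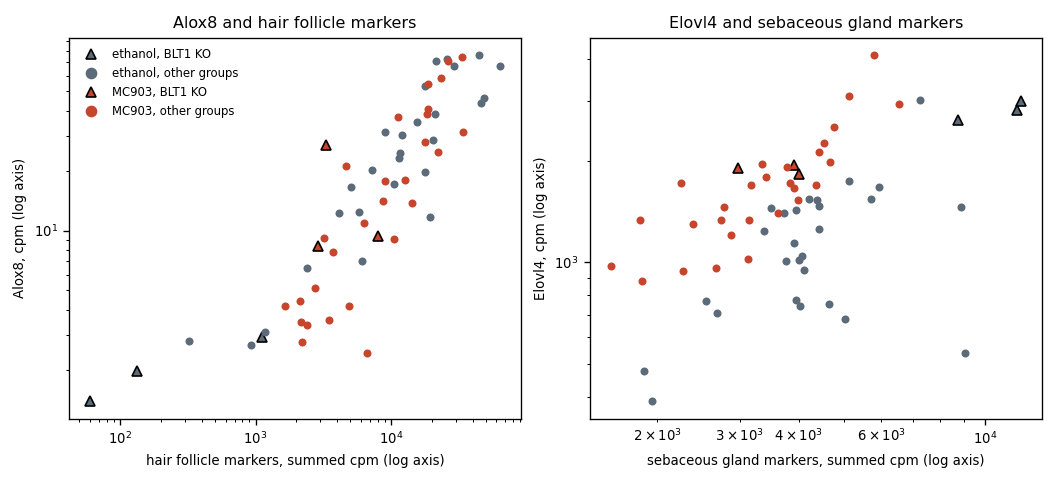
Each point is 1 of the 61 skin libraries, with ethanol in grey, MC903 in red and BLT1 KO libraries as outlined triangles. The left panel plots Alox8 against 8 summed hair follicle markers and the right panel Elovl4 against 12 summed sebaceous gland markers, in cpm on log axes, and the BLT1 KO ethanol libraries lie at the lower left of the first (1.39 to 2.91 cpm of Alox8) and at the upper right of the second (2642 to 3011 cpm of Elovl4). Ethanol libraries of wild-type day 5 (2.65 and 3.08 cpm of Alox8) and of anti-Gr1 (2.8 cpm) also lie at the lower left of the first.

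Alox15, the myeloid 12/15-lipoxygenase and the least abundant of the 10, went opposite ways in wild-type and TSLPR KO skin. In uninjected wild-type skin on day 8 it was at 2.25, 2.9, 3.66, 5.22 and 9.05 cpm with MC903 and at 0.647 to 2.33 with ethanol (median 1.35), 3.42-fold higher (log2 fold change 1.77, SE 0.391, adjusted p = 0.00594). Only the lowest MC903 and the highest ethanol library overlapped, and the value was 1.85 in cohort A (adjusted p = 0.0482) and 1.65 in cohort B (adjusted p = 0.0575). In TSLPR KO skin on day 8 it was lower, at 0.707, 0.841 and 1.28 cpm with MC903 against 2.63 and 4.74 with ethanol (log2 fold change -1.98, SE 0.417, adjusted p = 0.0421), a call that held in 1 of 5 fits without 1 library, that without ethanol replicate 2 (-2.35 to -1.48). On day 12 it was 0.608, 0.909, 0.978 and 1.04 cpm against 2.57, 2.75 and 3.13, 3.11-fold lower (log2 fold change -1.64, SE 0.268, adjusted p = 0.00616) and called in all 7 such fits. The MC903 effects of TSLPR KO and wild-type skin on day 8 differed by -3.71 on the log2 scale (SE 0.677, adjusted p = 0.0356), where 0.177% of all genes were called. With cohort B alone as the wild-type arm the difference was -3.62 (adjusted p = 0.116). On day 8 the TSLPR KO ethanol libraries lay above all uninjected wild-type ethanol libraries. The TSLPR KO MC903 libraries of that day lay below all uninjected wild-type MC903 libraries. Neither difference in level between genotypes was tested.

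The other values of Alox15 were smaller. It was 1.09 with PBS, 0.76 with anti-Gr1 and 0.23 in BLT1 KO skin on the log2 scale, none called, and 0.20 or less in size on days 1 and 2. On day 5 the MC903 libraries (1.41 to 2.22 cpm) lay below the ethanol libraries (2.35 to 3.28) without a call (log2 fold change -0.60, adjusted p = 0.216), and the day 8 effect was above that of day 1 (log2 difference 1.85, adjusted p = 0.0208), a call lost in one fit over the wild-type days (1.84, adjusted p = 0.0504). Macrophage markers were called higher with MC903 for 6 of 9 and lower for 1 in wild-type skin on day 8 (summed level 704 to 1913 cpm against 465.8 to 879), beside 12.2% and 11.2% of all genes. In TSLPR KO skin on day 8 they were called higher for 0 and lower for 1 of 9 (418 to 521 against 411 to 637), beside 1.3% and 1.14% of all genes. Of 4 eosinophil markers tested, 1 was called higher in wild-type skin on day 8 (12.2% of all genes) and 1 lower in TSLPR KO skin on day 12 (4.62% of all genes), and the part of either marker list in the result was not tested. The genes most like Alox15 over the 18 groups were Cd209e (r 0.905), Ccr3 (0.823), an eosinophil chemokine receptor, and Mgl2 (0.82), a lectin of dendritic cells and macrophages.

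**Figure D5:**
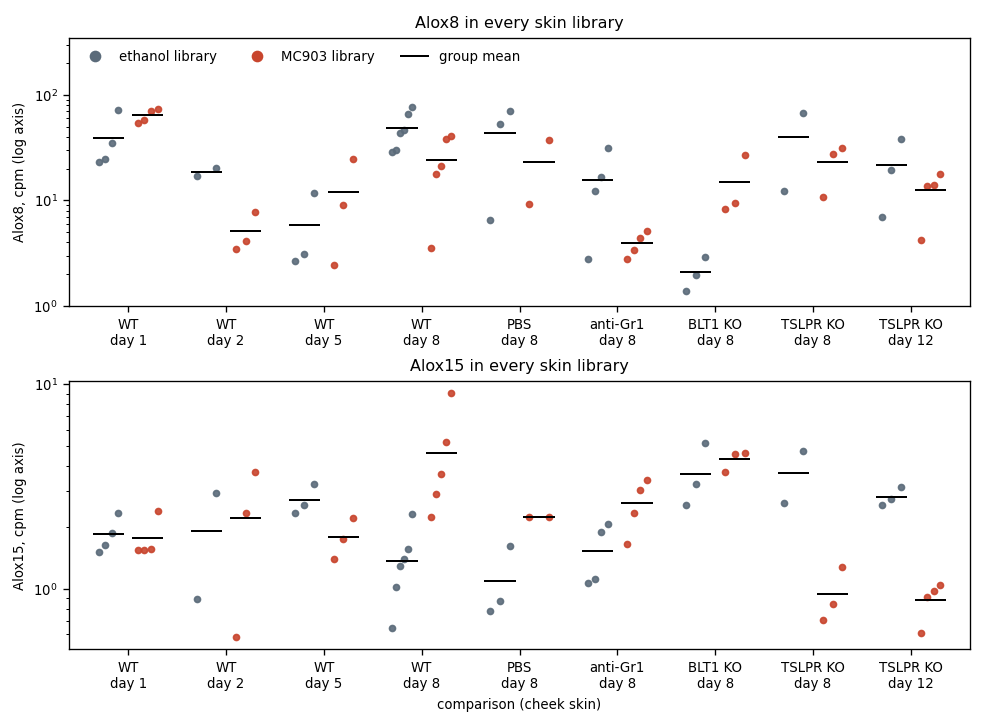
Alox8 (top) and Alox15 (bottom) in cpm (TMM-scaled, log axes) in each skin library by comparison, with ethanol libraries in grey, MC903 libraries in red and group means as black lines. In BLT1 KO skin the MC903 points of Alox8 lie above the ethanol points, and in TSLPR KO skin on both days those of Alox15 lie below them.

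In TSLPR KO skin 2 of the 10 genes, Alox12e and Alox15, were called on day 8, both lower, against 2.44% of all genes (1.3% higher and 1.14% lower). The same 2 were called on day 12, against 10% of all genes (5.41% higher and 4.62% lower). The barrier genes had day 8 log2 fold changes between -0.26 (Elovl4) and 0.39 (Alox12b), none called. Alox12b was at 47.7, 47.9 and 49.6 cpm with MC903 and at 28.6 and 44.7 with ethanol, and the difference of its MC903 effect from that of wild type was -0.88 on the log2 scale (SE 0.222) and not called by edgeR (adjusted p = 0.135), while DESeq2 called it (-0.90, adjusted p = 0.0161), where it called 2.99% of all genes. On day 12 the 7 barrier genes lay between 0.53 (Pnpla1) and 1.11 (Cyp4f39), none called by edgeR, with adjusted p from 0.0637 (Alox12b) to 0.154 (Pnpla1). DESeq2 called 6 of those 7 on day 12, all but Pnpla1, where it called 17.6% of all genes. On day 12 Cers3 was at 66.7, 69.3, 77.6 and 99.3 cpm with MC903 and at 29.7, 44.8 and 62 with ethanol, so that no library overlapped.

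Other genes of the same pathways were read from lists chosen by function, with earlier results of these data known. Of 31 other acylceramide and ceramide genes, 17 were called higher and 1 lower on day 8 in wild-type skin, where 12.2% and 11.2% of all genes were (median log2 fold change 0.53, beside -0.03 for all genes tested). The 3 with the smallest p and separated libraries were the desaturases Degs2 (50.4 ± 20.9 against 8.71 ± 1.14 cpm, log2 fold change 2.41) and Degs1 (146 ± 36.5 against 59.2 ± 3.0 cpm, 1.27) and the glucosylceramide synthase Ugcg (220 ± 42 against 103 ± 16.1 cpm, 1.12), each with n = 5 and 6. Sdr9c7, which follows Aloxe3 in the oxidation of linoleate, was called higher too (log2 fold change 0.80, adjusted p = 0.000124). On day 1, 2 of the 31 were called higher and 13 lower (median -0.31), beside 5.51% and 7.47% of all genes, and on day 5, 13 higher and 1 lower (median 0.21), beside 8.15% and 6.78%. In BLT1 KO skin 9 were called higher and 11 lower (median -0.05), beside 14.1% and 14.6% of all genes. In TSLPR KO skin on day 8 none of the 31 was called by edgeR (19 below 0, median -0.10), 5 had an unadjusted p under 0.05 and 1 was called by DESeq2, beside 2.44% of all genes called by edgeR and 5.99% by DESeq2, and on day 12, 10 were called higher and 0 lower (median 0.59), beside 5.41% and 4.62%.

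Of 14 genes of cholesterol and sterol sulphate synthesis that were tested, 9 were called higher on day 5 and 8 on day 8, with none lower (median log2 fold change 0.85 and 0.55), beside 8.15% and 12.2% of all genes called higher. On day 1, 1 was called higher and 2 lower (12 below 0, median -0.18), beside 5.51% and 7.47% of all genes. In BLT1 KO skin 2 were called higher and 3 lower (median -0.04), beside 14.1% and 14.6%. In TSLPR KO skin on day 12, 8 were called higher and 0 lower (median 0.79), beside 5.41% and 4.62%. In TSLPR KO skin on day 8 edgeR and DESeq2 called 0 of the 14 (median -0.08), beside 2.44% and 5.99% of all genes. Of the 14, 1, Sult2b1, had an unadjusted p under 0.05 there. Among those called higher on day 8 were the sulphotransferase Sult2b1 (110 ± 18.6 against 47 ± 6.72 cpm, log2 fold change 1.24) and the squalene epoxidase Sqle (0.73). Of 9 lipase genes, 2 were called higher on day 8, Pla2g4e (a median of 115.3 against 24.2 cpm, log2 fold change 2.29) and Pla2g2f (0.60), and 5 lower, among them the epidermal lipases Lipn (log2 fold change -1.58) and Lipm (-0.89) and the lipid-droplet enzyme Pnpla3 (-1.47). On day 8, 12.2% of all genes were called higher and 11.2% lower. The other lipoxygenases listed were Alox5 and Alox12. Alox12, the platelet-type enzyme, was 3.24-fold higher on day 5 (56.8 against 17.6 cpm, log2 fold change 1.69, adjusted p = 0.00126) and was not called on day 8 (-0.10). Alox5, which makes leukotrienes, was lower on day 1 (4.14 against 8.09 cpm, log2 fold change -0.96, adjusted p = 0.0128) and not called on day 8 (0.54).

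Markers of the cells that make the barrier went both ways. Of 12 granular and cornified keratinocyte markers, 4 were called higher and 6 lower on day 8 in wild-type skin, with overlapping summed levels (4543 to 7908 cpm with MC903, 5423 to 6154 with ethanol). Of all genes, 12.2% were called higher and 11.2% lower there. In BLT1 KO skin 4 were higher and 7 lower, at 4623 to 6014 against 8595 to 9482 cpm, beside 14.1% and 14.6% of all genes. The part of these markers in the results above was not tested. Over the 18 skin groups, the genes with the pattern most like Alox12b were Il1f9, the cytokine IL-36 gamma (r 0.945), Flvcr2 (0.939) and Lcn2 (0.935). Those most like Elovl4 were Awat1, a wax synthase of the sebaceous gland (0.955), Sgpp2 and Gm12551, those most like Abca12 were the desmoglein Dsg1b (0.93), Abhd5, an activator of lipases and of Pnpla1 (0.925), and Tpp1, and those most like Pnpla1 were Ap1m2 (0.963), Gsdma and Grb7. For Alox12e they were Gm13306, Ccl27b and Lysmd1 (0.924, 0.921 and 0.916), for Cers3 Endou (0.961), 2310046K23Rik and Ubap1, for Aloxe3 Mst1r (0.892), Stra6l and Mfsd10, and for Cyp4f39 Plpp6 (0.911), AI506816 and Tmem86a.

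Outside the skin most of the 10 genes were at trace levels. In 56 trigeminal ganglion libraries, without wild-type day 12, Abca12, Alox12b, Aloxe3, Alox12e, Cers3, Pnpla1 and Alox15 had medians of 0.0514 to 0.943 cpm of library total, against 1.98 to 211 in skin. Elovl4, which also makes the very long fatty acids of neurons and photoreceptors, was at a median of 92.5 cpm in ganglia and 68.4 in 27 spinal cord libraries, against 1522 in skin. Alox8 was at 10.1 cpm in spinal cord (5.61 to 12.9) and 0.895 in ganglia. Alox12e and Cyp4f39 were at 3 counts or fewer in all 27 spinal cord libraries, and Cyp4f39 was at 3.97 cpm in ganglia.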

How the data were processed

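Cheek skin RNA was sequenced as poly(A)-selected 50-base single-end reads on a HiSeq4000. According to the labels and the study's methods, the authors aligned reads to mm10 with TopHat and Bowtie2 and counted them per gene with htseq-count; the strand setting is not given in the sources used here. The deposited files hold raw counts, 46078 gene lines and 5 tally lines each. Reads tallied as on no gene (7.57% to 18.3%) or ambiguous (1.77% to 3.61%) were left out of totals and tests. Symbols came from GENCODE M21, which matched 45143 of the gene IDs.

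Counts were scaled by TMM, and MC903 was compared with ethanol by edgeR's quasi-likelihood test (edgeR 4.0.16, limma 3.58.1, R 4.3.3) in each group, over genes whose summed count was 10 or more. The wild-type day 8 fit had a cohort term. Benjamini-Hochberg adjustment covered all genes tested, and "called" means an adjusted p under 0.05. Differences between effects were interaction terms. DESeq2 1.42.0 was an alternative, as were other scalings, filters, fits, a replicate block and leaving out each library. The main edgeR fit of each MC903 comparison was tested on simulated data, while the interaction terms, DESeq2 and the other settings were not. Fold changes are log2 with standard errors (SE), and cpm are counts scaled to 1000000 per library. The smallest library held 17431296 counts, and Alox15 had 17 to 349 counts per skin library.

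The 10 genes are all named. From the other lists, up to 3 genes per direction were named on day 8, those called with the smallest p and no overlap of libraries, and both other lipoxygenases. Sdr9c7 was singled out after its values were seen. For likeness, the 3 genes with the highest Pearson r over 18 group means of log2(cpm + 0.5), at a mean of at least 1 cpm, were named. The members and lists were chosen with earlier results of these data known. The figures were drawn with matplotlib 3.10.9.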

Additional observations from a re-analysis of the deposited data

Results flagged for a closer look

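Each of the 10 genes was checked in each group of 4 to 10 libraries for a library apart from the rest. Of these 70 checks 3 found one, where chance gives about 1 in 20 for a single check. The checks of different genes share libraries and are not independent. On day 1 in wild-type skin, 1 MC903 library was apart for Alox15 (2.41 cpm, above the others) and 1 for Cyp4f39 (27.4 cpm, below the others). On day 8 in wild-type skin, 1 ethanol library was apart for Cyp4f39 (43.9 cpm, above the others).

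The MC903 effect differed between groups of day 8 mice for 4 genes, by a test of the difference itself. The log2 difference was -2.06 for Alox12e in anti-Gr1 against uninjected wild-type mice, 3.94 for Alox8 and -1.66 for Elovl4 in BLT1 KO against wild-type mice, and -3.71 for Alox15 in TSLPR KO against wild-type mice. Of all genes, 4.56% were called for anti-Gr1, 6.95% for BLT1 KO and 0.177% for TSLPR KO against wild type. All 4 differences use the same wild-type libraries.

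The MC903 effect also differed between days in wild-type skin. From day 1 to day 5 the log2 difference was 0.97 for Cers3, 1.88 for Alox12b, 0.84 for Abca12 and 1.36 for Cyp4f39. From day 1 to day 8 it was 1.85 for Alox15, 0.47 for Cers3, 1.72 for Elovl4, 1.77 for Alox12b, 0.84 for Abca12 and 1.23 for Cyp4f39. From day 5 to day 8 it was -1.61 for Pnpla1. Of all genes, 10.8% were called from day 1 to day 5, 19.8% from day 1 to day 8 and 1.62% from day 5 to day 8. These sets share the libraries of the day they have in common.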

How the results depend on the processing

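Of 381 called results under other settings, 336 stayed called and 45 did not, and of 277 under left-out libraries 225 and 52, with no called value reversed. The cause of each change below was not tested. Called genes of the 10 under another setting, with the share of all genes called in that fit, were, for day 1, 1 with library totals (3.98%) and 0 in one fit over all skin (1.96%), for day 2, 2 with DESeq2 (1.33%) and 1 in one fit (5.49%), for day 8, 5 in cohort A (17.5%) and 4 in cohort B (9.36%), for BLT1 KO 4 in one fit (28.2%), for TSLPR KO day 8, 1 with library totals (2.33%), and for TSLPR KO day 12, 8 with DESeq2 (17.6%) and 5 in one fit (8.93%). For differences they were 2 (DESeq2, 2.99%) and 0 (cohort B, 0.0193%) for TSLPR KO against wild type, 7 (DESeq2, 19.2%), 1 (one skin fit, 5.64%) and 1 (one wild-type fit, 4.81%) for day 5 against 1, 2 (one wild-type fit, 11.5%) for day 8 against 1, and 2 (DESeq2, 7.43%), 2 (no filter, 1.49%), 2 (one skin fit, 1.29%) and 0 (one wild-type fit, 1.14%) for day 8 against 5.

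Values that changed sign, none called, were Cers3 on day 1 (0.02, library totals), Pnpla1 on day 8 (0.43, cohort B), Alox12b (0.28) and Alox15 (0.06) for anti-Gr1 against PBS with library totals, Abca12 for day 8 against 5 (0.02, one wild-type fit) and, with cohort B as the wild-type arm, Abca12 for anti-Gr1 (-0.30), Aloxe3 for BLT1 KO (0.02), and Alox8 (-0.74) and Pnpla1 (-0.56) for TSLPR KO.

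Without 1 library, called counts ran from 1 to 5 on day 1, 0 to 0 on day 2, 5 to 5 on day 5, 7 to 8 on day 8, 0 to 4 with PBS, 4 to 8 with anti-Gr1, 4 to 7 in BLT1 KO, and 1 to 2 and 2 to 4 in TSLPR KO on days 8 and 12. The share of all genes called then ran from 5.34% to 20.9% on day 1, 7.05% to 20.6% on day 5, 0.425% to 9.12% with PBS, and 0.759% to 3.46% and 4.77% to 14.4% in TSLPR KO on days 8 and 12. Ranges that crossed 0, none called, were on day 1 Alox15 (-0.23 to 0.10) and Cers3 (-0.08 to 0.07), on day 2 Abca12 (-0.29 to 0.70), Alox15 (-0.41 to 1.29) and Cers3 (-0.56 to 0.14), on day 5 Elovl4 (-0.04 to 0.30), on day 8 Pnpla1 (-0.30 to 0.03), with PBS Abca12 (-0.03 to 0.13) and Pnpla1 (-0.38 to 0.17), and in TSLPR KO on day 8 Abca12 (-0.28 to 0.10), Alox8 (-1.52 to 0.90), Cyp4f39 (-0.38 to 0.36), Elovl4 (-0.77 to 0.53) and Pnpla1 (-0.45 to 0.26).

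Deviations of same-numbered replicates from their group means had r from -0.482 to 0.486. The numbers were not taken as pairs because the study's methods do not use them so. With a replicate block, 1 gene was called on day 1 (7.25% of all genes), 2 on day 2 (3.56%) and 1 in TSLPR KO on day 12 (2.15%), and Cers3 on day 2 (0.14) and Alox8 (0.04) and Pnpla1 (0.35) with PBS changed sign. Library totals in place of TMM moved the median of all genes to 0.15 on day 2 and to 0.16 in TSLPR KO on day 12, where 65.7% of calls were then higher (53.9% with TMM).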
